A study of Mus musculus with 16 samples.

Results

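Interferon regulatory factors are the transcription factors that switch on interferon genes and the genes that interferons induce. The family was represented here by 8 genes, Irf1, Irf2, Irf3, Irf4, Irf5, Irf7, Irf8 and Irf9, of 18193 genes tested. They were chosen by name, and all 8 had at least 1 probe set (the group of short probes that reports a transcript) annotated to that gene alone, 14 probe sets in all. Where a gene had several, the one with the highest mean over all arrays was used and the others served as a check. No filter on low values was applied, so every member was tested.

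RNA from the ventricular myocardium of male CD1 mice aged 14 weeks was measured on Affymetrix arrays in 4 groups of 4 arrays. Wild-type littermates (WT) and mice without the adenosine 2A receptor (A2AR KO) had each received saline or 20 mg/kg of LPS from E. coli, the endotoxin that provokes systemic inflammation, and hearts were collected 24 h later. The groups are therefore WT saline, WT LPS, A2AR KO saline and A2AR KO LPS. The knockout is constitutive, and the tissue is described as ventricular myocardium, so muscle, vessels and any blood cells in it were measured together. The labels number the replicates but do not say that each array is a separate animal, so the p-values measure the spread between these arrays.

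Members of the family share a DNA-binding domain that reads GAAA-type elements in the control regions of interferon and interferon-stimulated genes. Irf3, Irf5 and Irf7 are held inactive in the cytoplasm until kinases downstream of Toll-like receptors and nucleic acid sensors phosphorylate them. Irf9 is part of the ISGF3 complex that answers type I interferon, Irf1 and Irf2 act as activator and antagonist on shared elements, and Irf4 and Irf8 direct the development of lymphoid and myeloid cells. Transcript level is only part of this control, since several members act through changes to the protein.

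Promoter sequences of 5 members are shown because they belong to members whose transcripts rose after LPS (Irf1, Irf8, Irf7, Irf9) or hold all 4 motifs searched for (Irf2). Each run ends just before the first base of the annotated gene and reads 5′ to 3′ along the gene, from RefSeq on GRCm38.p6, and capitals mark motif matches.
Irf1, chr11:53769764-53770013, plus strand: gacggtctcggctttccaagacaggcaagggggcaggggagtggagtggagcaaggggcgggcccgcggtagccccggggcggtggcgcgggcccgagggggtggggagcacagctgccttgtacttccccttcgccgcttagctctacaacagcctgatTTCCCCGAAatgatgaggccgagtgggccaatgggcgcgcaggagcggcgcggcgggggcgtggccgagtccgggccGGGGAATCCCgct
Irf8, chr8:120736108-120736357, plus strand: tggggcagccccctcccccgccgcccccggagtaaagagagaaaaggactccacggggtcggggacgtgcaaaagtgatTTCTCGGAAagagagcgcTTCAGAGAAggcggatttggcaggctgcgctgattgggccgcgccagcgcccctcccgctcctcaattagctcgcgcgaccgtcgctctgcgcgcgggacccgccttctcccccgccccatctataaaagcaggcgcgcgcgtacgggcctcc
Irf2, chr8:46739495-46739744, plus strand: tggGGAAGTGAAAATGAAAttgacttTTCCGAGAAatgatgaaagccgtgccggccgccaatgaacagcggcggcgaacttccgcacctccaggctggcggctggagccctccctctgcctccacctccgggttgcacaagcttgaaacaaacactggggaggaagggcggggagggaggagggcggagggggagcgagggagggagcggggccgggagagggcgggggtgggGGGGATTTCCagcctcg
Irf7, chr7:141266500-141266674, minus strand: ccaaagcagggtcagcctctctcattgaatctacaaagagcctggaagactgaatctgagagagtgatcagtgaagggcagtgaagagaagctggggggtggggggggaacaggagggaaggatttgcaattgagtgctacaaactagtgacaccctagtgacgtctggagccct
Irf9, chr14:55603735-55603984, plus strand: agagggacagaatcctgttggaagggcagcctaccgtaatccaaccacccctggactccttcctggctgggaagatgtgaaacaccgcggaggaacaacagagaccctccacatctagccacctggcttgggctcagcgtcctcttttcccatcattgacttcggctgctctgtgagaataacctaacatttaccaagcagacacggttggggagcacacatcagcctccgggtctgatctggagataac
The capitals in Irf1 are, from left to right, a STAT-binding GAS element (TTCNNNGAA), beginning 90 bases before the start, and a match to the NF-kB consensus, beginning 13 bases before it. The capitals in Irf8 are a pair of GAS elements, 171 and 153 bases before the start. In Irf2 the first capitals join an Ets-IRF composite element (GGAA, any 2 bases, GAAA), 247 bases before the start, and an interferon-stimulated response element (ISRE; GAAA, any 2 bases, GAAA), 241 bases before it, which overlap. A GAS element follows at 224 bases and an NF-kB match at 17 bases. The Irf7 run is shorter because the other 75 of its 250 bases lie inside the annotated gene. The 4 motifs were searched on both strands in the 250 bases before each of the 11 RefSeq starts of the 8 members. For comparison, a GAS match was found in 7.02% of 32851 promoter windows of that length, an NF-kB match in 7.25%, an ISRE in 2.98% and an Ets-IRF element in 2.3%. These letters were not found in the windows of Irf3, Irf4, Irf5, Irf7 and Irf9. A match describes the sequence and does not show that a factor binds there.

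Some arrays stood apart over all genes or by their marker levels. On the first principal component, which took 66.3% of the variance and parted LPS from saline, WT LPS array 4 lay at 7.58 and the other 7 LPS arrays at 27.6 to 54.0. On the second (8.6%) WT LPS array 4 lay at -35.3 and A2AR KO LPS array 2 at 36.6, and the other 14 arrays lay between -15.4 and 8.16. These 2 arrays also had the extreme marker levels among LPS arrays. WT LPS array 4 had the highest mean log2 level of macrophage and monocyte (7.82), endothelial (8.92), fibroblast (10.25) and ventricular muscle markers (13.80). A2AR KO LPS array 2 had the lowest macrophage (6.29), fibroblast (8.84) and ventricular (13.42) means. Skeletal muscle markers were high in WT saline arrays 1 and 4 (7.30 and 8.55, against 5.37 to 5.78 in the other 14 arrays). Genes listed as ventricular muscle markers were high in all arrays, with a mean over 8 genes of 13.42 to 13.98. The mean over 5 genes listed as atrial markers was 10.66 to 11.96. The part of atrial tissue in the samples was not tested.

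The LPS comparison asked how transcripts for these factors in the ventricle, with the blood and other cells it held, answered endotoxin, with and without the A2AR. In both genotypes Irf7, Irf9, Irf1 and Irf8 rose, and Irf2, Irf3, Irf4 and Irf5 did not pass the test. A gene was called when its p adjusted over all 18193 genes by the Benjamini-Hochberg method, from limma with 1 mean per group, was under 0.05. That gave 4 of 8 members called higher in each genotype, against 9.28% of all genes in WT and 11.4% in A2AR KO hearts. In either direction 20.9% and 26.1% of all genes were called, and no member was called lower. The median change of the 8 members was 0.92 in WT and 1.30 in A2AR KO hearts on the log2 scale, and the median over all genes was -0.0035 and -0.018. Every LPS array stood above every saline array of its genotype for 3 members in WT and 4 in A2AR KO hearts, against 10.9% and 12.3% of all genes.

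**Figure D1:**
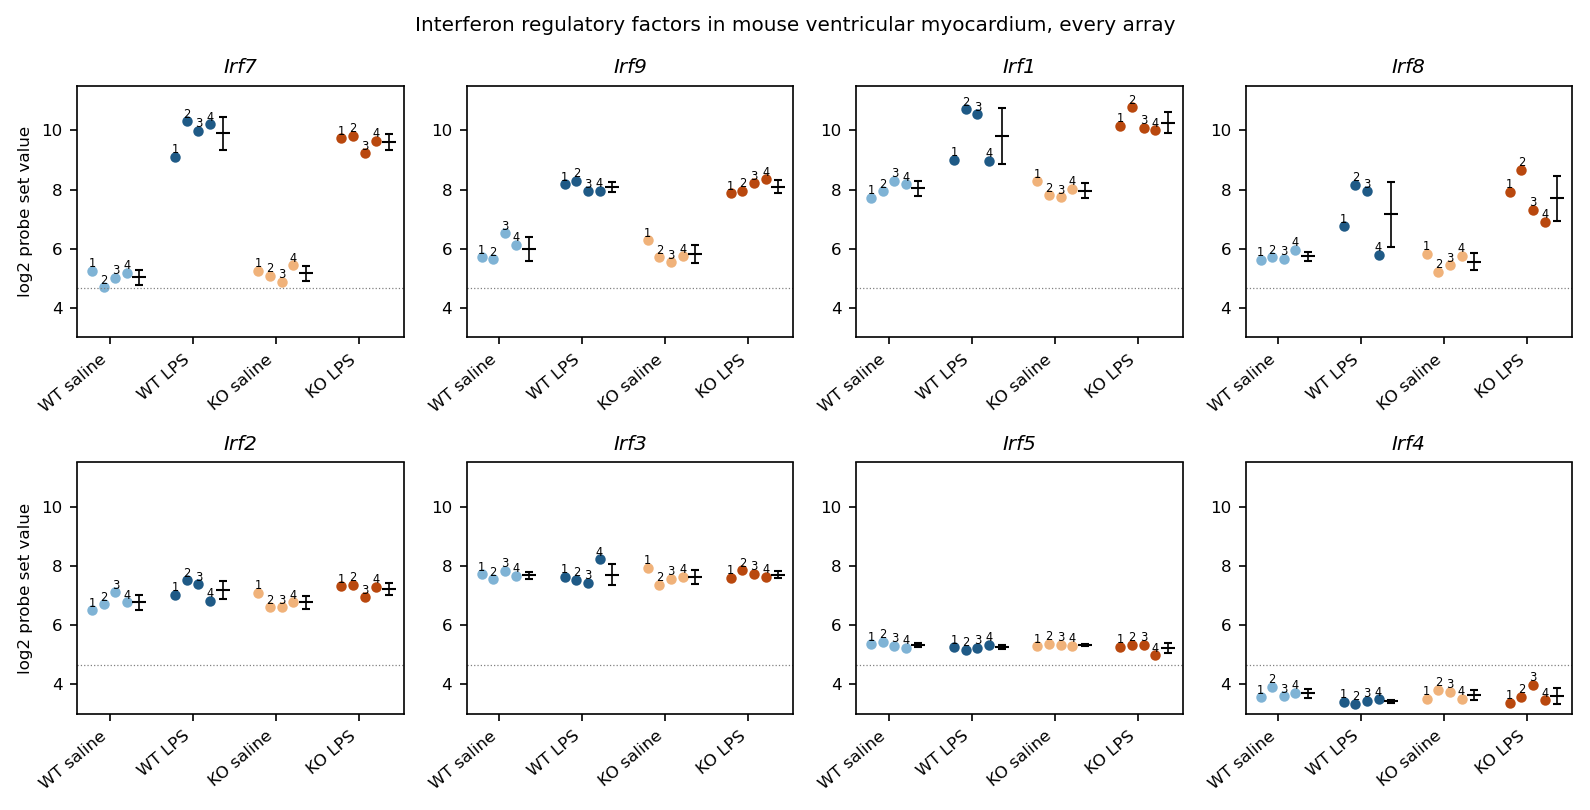
Log2 probe set value of each member in every array, numbered by replicate, with the group mean and SD (n = 4) at the right of each group and a dotted line at 4.66, the median over all probe sets. Irf7 separates LPS from saline most widely, Irf1 and Irf8 spread widely in the WT LPS group, and Irf4 stays under the dotted line in every array.

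Irf7, the factor that amplifies the type I interferon response once interferon has been sensed, showed the largest change of the family. Its probe set 1417244_a_at had log2 levels of 5.26, 4.69, 5.02 and 5.19 in WT saline arrays 1 to 4 and 9.10, 10.31, 9.98 and 10.20 in WT LPS arrays. In A2AR KO hearts it was 5.26, 5.08, 4.87 and 5.44 after saline and 9.74, 9.82, 9.23 and 9.65 after LPS. No LPS array came within 3 log2 units of a saline array. Irf7 rose by 4.86 ± 0.22 (SE) on the log2 scale in WT hearts, a 29.0-fold change (adjusted p = 2.07e-10), and by 4.45 ± 0.22 in A2AR KO hearts, 21.8-fold (adjusted p = 5.99e-10). By size of rise it stood at place 12 of all genes in WT and 30 in A2AR KO hearts. Its saline levels lay near the median over probe sets (4.66), where part of the signal is background, so these folds may understate the change.

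Irf3 and Irf5, the other signal-activated inducers, showed no such change. Irf3 is present in most cells before any stimulus, and its probe set 1426111_x_at read 7.55 to 7.83 after saline and 7.44 to 8.23 after LPS in WT hearts, and 7.37 to 7.95 and 7.59 to 7.86 in A2AR KO hearts. All 4 groups overlapped, and the LPS change was 0.02 (95% interval -0.32 to 0.35) in WT and 0.07 (-0.26 to 0.40) in A2AR KO hearts. The x in that probe set's name marks probes that may cross-react with other transcripts. None of the other 3 Irf3 probe sets was called either, with changes of -0.35 to -0.02 in WT hearts and -0.40 to 0.34 in A2AR KO hearts. Irf5, which drives inflammatory cytokine genes in macrophages, was read by probe set 1449678_at and lay between 4.98 and 5.43 in all 16 arrays. Its LPS change was -0.08 (-0.28 to 0.11) and -0.10 (-0.29 to 0.10), and its second probe set (1460231_at), with changes of 0.31 and 0.15, was not called.

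Irf9, the DNA-binding subunit of ISGF3, had the smallest spread among the LPS arrays of the 4 members that rose. Its probe set 1421322_a_at read 5.71, 5.65, 6.52 and 6.13 in WT saline arrays and 8.18, 8.29, 7.94 and 7.96 in WT LPS arrays. A2AR KO arrays read 6.28, 5.71, 5.54 and 5.74 after saline and 7.87, 7.95, 8.21 and 8.34 after LPS. The LPS groups of both genotypes lay over the same span and clear of every saline array. Irf9 rose by 2.09 ± 0.19 in WT hearts (4.27-fold, adjusted p = 6.92e-07) and by 2.28 ± 0.19 in A2AR KO hearts (4.84-fold, adjusted p = 2.62e-07).

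Irf1, an activator of antigen presentation and T cell chemokine genes (probe set 1448436_a_at), read 7.73, 7.94, 8.29 and 8.18 in WT saline arrays. In WT LPS arrays it read 9.004, 10.71, 10.55 and 8.97, so arrays 2 and 3 were over 1 log2 unit above arrays 1 and 4. A2AR KO arrays read 8.28, 7.81, 7.74 and 8.02 after saline and 10.16, 10.79, 10.08 and 10.00 after LPS. Every LPS array lay above every saline array, and the WT LPS group was the most spread (SD 0.95, against 0.36 in A2AR KO LPS). Irf1 rose by 1.77 ± 0.33 in WT hearts (3.42-fold, adjusted p = 0.000912) and by 2.30 ± 0.33 in A2AR KO hearts (4.91-fold, adjusted p = 7.41e-05).

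Irf2, which competes with Irf1 for the same elements, had a smaller rise that was not called. Its probe set 1418265_s_at read 6.50, 6.70, 7.11 and 6.78 after saline and 7.02, 7.52, 7.38 and 6.83 after LPS in WT hearts. In A2AR KO hearts it read 7.10, 6.60, 6.61 and 6.77 after saline and 7.31, 7.37, 6.94 and 7.29 after LPS. The groups overlapped in both genotypes. The LPS change was 0.42 ± 0.17 in WT hearts (95% interval 0.06 to 0.78, adjusted p = 0.0999). In A2AR KO hearts it was 0.46 ± 0.17 (0.10 to 0.82, adjusted p = 0.0575). Neither passed, although both intervals, which are not adjusted over genes, lie above 0. Irf2 passed in some settings that changed 1 choice. Examples are A2AR KO hearts when dim genes were left out (adjusted p = 0.0422) and WT hearts without WT LPS array 4 (change 0.54, adjusted p = 0.0243).

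Irf8, a factor of monocytes, macrophages and dendritic cells that interferon gamma also induces (probe set 1448452_at), read 5.63, 5.71, 5.65 and 5.96 in WT saline arrays. In WT LPS arrays it read 6.76, 8.15, 7.95 and 5.80. WT LPS array 4 thus lay within the saline range, and the 2 groups overlapped. A2AR KO arrays read 5.82, 5.21, 5.44 and 5.76 after saline and 7.92, 8.66, 7.31 and 6.90 after LPS, with no overlap. Irf8 rose by 1.43 ± 0.42 in WT hearts (2.69-fold, adjusted p = 0.0220) and by 2.14 ± 0.42 in A2AR KO hearts (4.42-fold, adjusted p = 0.00111). The WT call was lost without WT saline array 1 (adjusted p = 0.0529) or 3 (0.0517) or WT LPS array 2 (0.0864) or 3 (0.0829). Without WT LPS array 4 the WT change was 1.88 (adjusted p = 0.000665). The second Irf8 probe set, 1416714_at, read 4.24 to 5.16 after saline and 6.07 to 7.89 after LPS in WT hearts, with no overlap. Tested across all 45037 probe sets, it rose by 2.12 ± 0.41 (adjusted p = 0.00163) in WT and by 2.36 ± 0.41 (adjusted p = 0.000523) in A2AR KO hearts.

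Irf4, a factor of lymphocytes and plasma cells, was under the median over probe sets in all 16 arrays with both of its probe sets. The used one, 1421173_at, read 3.57 to 3.91 after saline and 3.34 to 3.49 after LPS in WT hearts, groups that did not overlap, and 3.50 to 3.82 and 3.37 to 3.98 in A2AR KO hearts. Its LPS change was -0.28 ± 0.12 in WT (adjusted p = 0.107) and -0.04 ± 0.12 in A2AR KO hearts (adjusted p = 0.837). The second, 1421174_at, gave 0.05 and -0.12. At these levels a change of the transcript cannot be told from background.

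**Figure D2:**
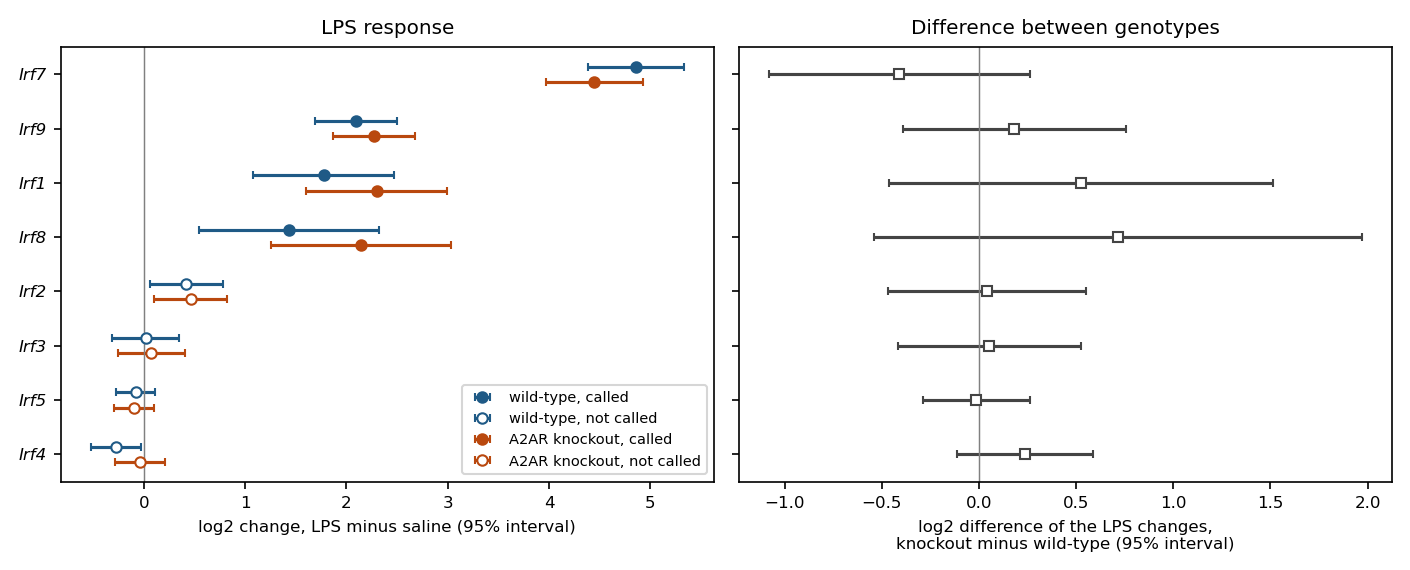
Left, log2 change of each member, LPS minus saline, with its 95% interval in WT and A2AR KO hearts, filled where called; right, the knockout change minus the wild-type change with its 95% interval. The 4 called members lie between 1.43 and 4.86 at left, and all 8 intervals at right include 0.

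The knockout comparisons asked whether the A2AR sets the level of these factors at rest or their answer to LPS. No member was called between genotypes after saline, after LPS, or in the difference of the LPS responses, and none had an unadjusted p under 0.05 in any of these limma tests. The background was as thin, with 0.0055% of all genes called after saline (1 gene, Cidec, unadjusted p under 0.05 for 634 genes), 0.0055% after LPS (1 gene, Slc38a1, 1375 genes) and 0% in the difference (813 genes). Both named genes were picked after their values had been seen. The level of the deleted receptor's own transcript is not analysed here, so the genotype of each array rests on its label.

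After saline the knockout minus wild-type differences of the members ran from -0.18 (Irf9 and Irf8) to 0.12 (Irf7). After LPS they ran from -0.29 for Irf7 (95% interval -0.76 to 0.19) to 0.53 for Irf8 (-0.36 to 1.42), with Irf1 at 0.45 (-0.25 to 1.15) and Irf9 at -0.001 (-0.41 to 0.40). All of these intervals include 0. The LPS response was larger in A2AR KO hearts by 0.72 for Irf8 (-0.54 to 1.97), by 0.52 for Irf1 (-0.47 to 1.51) and by 0.18 for Irf9 (-0.39 to 0.76). For Irf7 the difference was -0.41 (-1.08 to 0.26). None of these passed (adjusted p 0.959 to 0.966). The second Irf8 probe set, 1416714_at, gave a smaller difference of the responses, 0.24 ± 0.58 (SE). Its knockout minus wild-type difference was 0.32 after LPS and 0.07 after saline, and none of these was called. The intervals of Irf1 and Irf8 still allow a response larger by over 1 log2 unit in A2AR KO hearts, and that of Irf7 a response smaller by over 1 log2 unit. The sizes for Irf1 and Irf8 rest on single arrays. Without WT LPS array 4 the difference after LPS was 0.08 for Irf8 and 0.17 for Irf1, and that of the responses 0.26 and 0.24. Without A2AR KO LPS array 2 these were 0.21 and 0.27 after LPS, and 0.39 and 0.35 for the responses. Without WT LPS array 2 they were larger, 0.86 and 0.75 after LPS and 1.04 and 0.82 for the responses. These comparisons share arrays with the ones above and are not separate evidence.

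Set in order of mean level, both LPS groups stood above both saline groups for Irf7, Irf9, Irf1, Irf8 and Irf2. The A2AR KO LPS group was first for Irf1 (10.26 ± 0.36, SD, against 9.81 ± 0.95 in WT LPS), Irf8 (7.70 ± 0.77 against 7.17 ± 1.10) and Irf2 (7.23 ± 0.19 against 7.19 ± 0.32). The WT LPS group was first for Irf7 (9.90 ± 0.55 against 9.61 ± 0.26). For Irf9 the 2 LPS groups were level (8.09 ± 0.17 and 8.09 ± 0.22). In each case these neighbours differed by less than the larger of their SDs, as did the 2 saline groups of each of these genes. For Irf3 the 4 means lay between 7.63 and 7.71, and for Irf5 between 5.23 and 5.33.

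Within the LPS groups the members did not spread alike. In WT LPS arrays 1 to 4 Irf1 deviated from its group mean by -0.80, 0.90, 0.74 and -0.84 and Irf8 by -0.40, 0.99, 0.78 and -1.36. Irf9 deviated by 0.09, 0.20, -0.15 and -0.13, and Irf7 by -0.80, 0.41, 0.08 and 0.30. Irf1 and Irf8 were thus high in arrays 2 and 3 and low in 1 and 4, Irf7 was low in array 1 only, and Irf9 varied little. Among A2AR KO LPS arrays the highest Irf1 and Irf8 values were both in array 2.

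Without WT LPS array 4, which stood apart over all genes, Irf1 in WT hearts changed by 2.05 (adjusted p = 0.000106), and without A2AR KO LPS array 2 Irf8 in A2AR KO hearts changed by 1.82 (adjusted p = 0.00429). Across the LPS arrays, macrophage and monocyte, endothelial, fibroblast and ventricular marker means were highest in WT LPS array 4, where Irf1 and Irf8 were lowest. Macrophage and monocyte, fibroblast and ventricular means were lowest in A2AR KO LPS array 2, where Irf1 and Irf8 were highest. The part of the arrays' composition in the values of Irf1 and Irf8 was not tested.

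**Figure D3:**
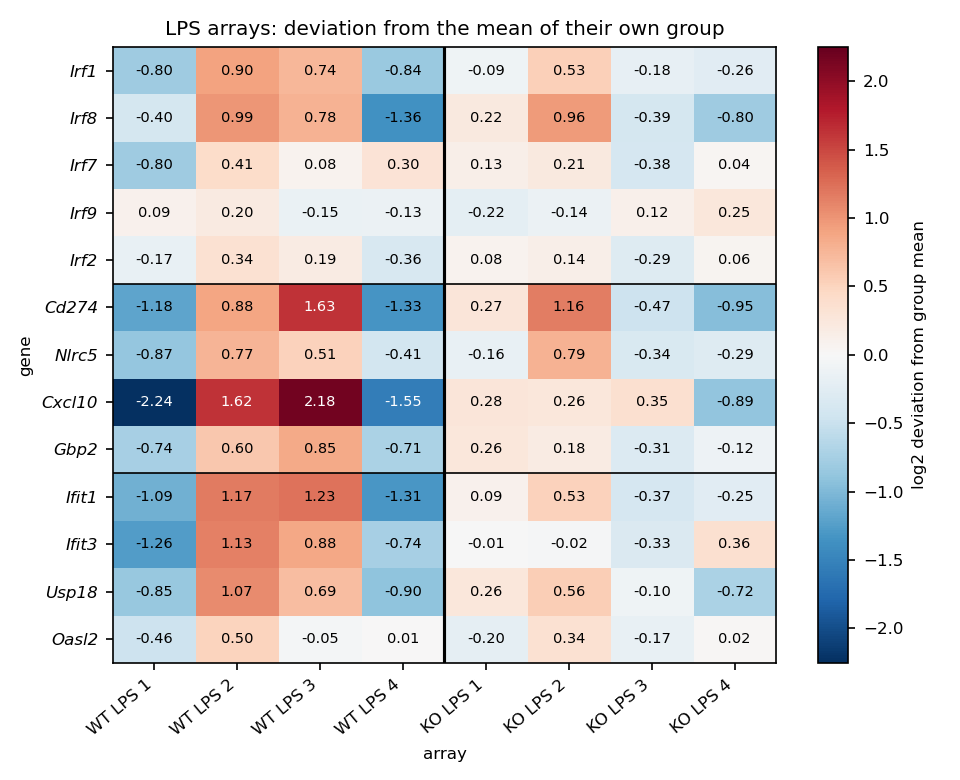
Deviation of each LPS array from the mean of its own group, in log2 units, for the members that rose and Irf2 (top), named IRF1 targets (middle) and named ISGF3 targets (bottom). Irf1, Irf8, Irf2, Cd274, Nlrc5, Cxcl10, Gbp2, Ifit1, Ifit3 and Usp18 are below their mean in WT LPS arrays 1 and 4 and above it in arrays 2 and 3.

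Genes known from textbook biology as targets of these factors were read from lists. Of 14 genes listed as IRF1 targets, all measured, 10 rose in WT and 9 in A2AR KO hearts and none fell, with median changes of 1.56 and 1.29. Cd274, the checkpoint ligand PD-L1, rose by 5.35 ± 0.54 (adjusted p = 2.08e-06) and 5.51 ± 0.54 (adjusted p = 1.29e-06). The guanylate-binding protein gene Gbp2 rose by 3.99 ± 0.29 and 4.04 ± 0.29, and the T cell attractant Cxcl10 by 3.94 ± 0.70 and 4.17 ± 0.70. Cxcl10 read 6.27, 10.13, 10.69 and 6.96 in WT LPS arrays 1 to 4, which thus parted in the same way as for Irf1. The first principal component was also highest in WT LPS arrays 2 and 3 (46.5 and 50.5, against 32.8 and 7.58 in arrays 1 and 4). In A2AR KO LPS arrays Cxcl10 read 9.08, 9.06, 9.15 and 7.91, without the high value that Irf1 had in array 2. Ciita, the master regulator of MHC class II genes, had changes of 0.06 and 0.05 at group means under 4, and Il12b of -0.17 and -0.07, none of them called.

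Of 16 genes listed as ISGF3 targets, 15 were measured. All 15 rose in WT hearts and 13 in A2AR KO hearts, with median changes of 3.15 and 2.78. Mx1 (1.22 in WT and 0.56 in A2AR KO hearts, adjusted p = 0.0751 in the latter) and Oas3 (0.65 and 0.24, adjusted p = 0.358 in A2AR KO hearts) were the 2 that passed in WT hearts alone. The difference of the response between genotypes was not called for any of the 15. Usp18, a protease that damps interferon signalling, rose by 4.77 ± 0.37 and 4.51 ± 0.37. It read 8.23, 10.15, 9.77 and 8.18 in WT LPS arrays, again higher in arrays 2 and 3, although Irf9 itself was level across them.

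Upstream of the factors, 16 of 19 listed sensors, adaptors and kinases were measured. In WT hearts 8 rose and 1 fell, and in A2AR KO hearts 9 rose and 1 fell, with median changes of 0.70 and 0.79. The cytoplasmic RNA sensors Ifih1 (3.07 ± 0.29 and 3.17 ± 0.29) and Ddx58 (2.33 ± 0.20 and 2.03 ± 0.20) and the nucleic acid sensor Zbp1 (3.60 ± 0.25 and 3.18 ± 0.25) rose. The kinases that phosphorylate Irf3 and Irf7 rose too, Tbk1 by 1.29 and 1.46 and Ikbke by 1.77 and 1.81. Mavs, the mitochondrial adaptor of the RNA sensors, fell by 0.77 and 0.78. Tlr4, the LPS receptor, had changes of 0.44 and 0.28 that were not called.

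Among interferons, their receptors, JAKs and STATs, 3 of 11 measured genes rose in each genotype, with median changes of 0.11 and 0.05. Stat2, the partner of Irf9, rose by 2.38 ± 0.23 and 2.76 ± 0.23, Jak2 by 0.86 and 0.68, and the receptor chain Ifnar2 by 0.63 and 0.40. The interferon genes Ifnb1, Ifna4 and Ifng were at mean levels of 2.92 to 3.89 in every group, under the median over probe sets, and none was called. Of 7 partners of Irf4 and Irf8, 3 rose in WT and 2 in A2AR KO hearts, with median changes of 0.35 and 0.27. Batf2, which pairs with Irf1 and Irf8, rose by 1.78 ± 0.31 in both. Spi1 (PU.1) rose by 0.60 in WT hearts and changed by 0.50 (adjusted p = 0.0690) in A2AR KO hearts. Spi1 was highest in WT LPS array 4 (7.02, against 5.84 to 6.05 in the other WT LPS arrays), the array in which Irf8 was lowest.

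Of 7 measured regulators of IRF proteins, 2 rose and 2 fell in WT hearts, and 1 rose and 2 fell in A2AR KO hearts, with median changes of -0.20 and -0.04. Trim21, a ubiquitin ligase that acts on several members, rose by 1.62 ± 0.27 and 1.79 ± 0.27. Sike1, a suppressor of the kinases Ikbke and Tbk1, fell by 0.28 and 0.47. Irf2bp2, a corepressor of Irf2, fell by 0.55 in WT hearts and had a change of -0.04 (adjusted p = 0.921) in A2AR KO hearts.

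**Figure D4:**
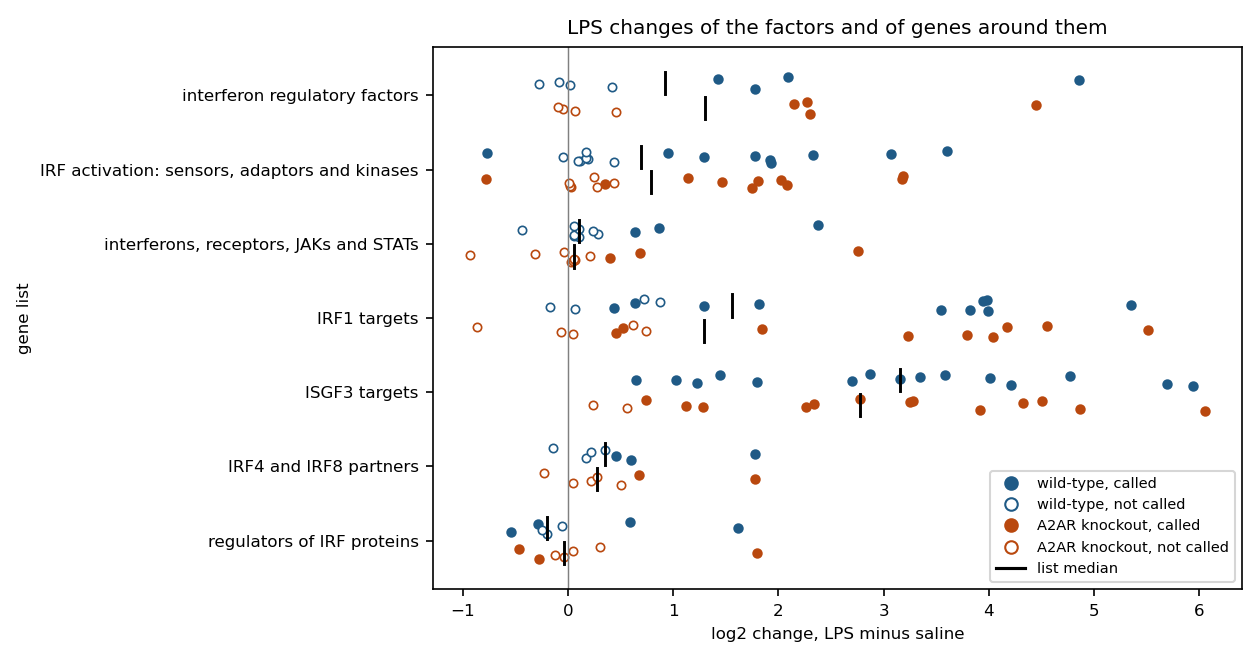
Log2 change, LPS minus saline, of each measured gene of the family and of 6 lists around it, in WT and A2AR KO hearts, filled where called, with a black bar at each median. The ISGF3 targets have medians of 3.15 and 2.78 and the interferons, receptors, JAKs and STATs 0.11 and 0.05.

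The nearest genes were those with the smallest root mean square difference from a member over the 16 arrays, after each gene was centred on its own mean. Values were not scaled, so the size of a gene's LPS change enters this difference as well as its pattern. For Irf1 these were Rnf19b (0.28 log2 units), Litaf (0.30) and Trim21 (0.30), and Irf8 stood almost as near (0.32). For Irf8 they were Adamts9 (0.24), Rai14 (0.25) and Apold1 (0.26). For Irf9 they were Tapbp (0.20), the MHC class I gene H2-K1 (0.23) and Slfn8 (0.24), and for Irf7 Gbp6 (0.40), Fpr2 (0.40) and Oasl2 (0.44). Irf9 lay farther from Irf8 (0.70) than from Irf1 (0.51). Irf7, which had the largest LPS change, lay more than 1 log2 unit from each other member.

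Several members are known chiefly from blood and immune cells, so markers of these cells were read beside them. In bulk tissue, fewer cells of a type and less RNA per cell cannot be told apart. Of 9 macrophage and monocyte markers, 2 rose and 3 fell in each genotype. Cd14, the LPS co-receptor, rose by 2.28 and 1.79 and the integrin gene Itgam by 2.47 and 2.38, while Csf1r fell by 0.90 and 1.35 and Mrc1 by 1.23 and 0.98. The third to fall was Cx3cr1 in WT and Lyz2 in A2AR KO hearts. Their mean level ran from 6.82 to 6.98 in WT saline and 6.53 to 7.82 in WT LPS arrays, and from 6.80 to 6.89 and 6.29 to 7.02 in A2AR KO arrays. Of 7 dendritic cell markers none was called in either genotype, and their mean stayed between 4.25 and 4.45 in all arrays. Neutrophil markers rose for 3 of 7 in each genotype (S100a8, S100a9 and Ngp), and the others, among them Mpo and Elane, were not called. The mean over the 7 ran from 3.97 to 4.18 in WT saline and 5.67 to 6.21 in WT LPS arrays. In A2AR KO hearts it ran from 4.15 to 4.22 after saline and 6.10 to 6.39 after LPS. Within WT LPS arrays 1 to 4 it read 6.21, 5.89, 5.88 and 5.67, whereas Irf1 and Irf8 were highest in arrays 2 and 3. B and plasma cell markers fell for 3 of 7 in WT and 2 in A2AR KO hearts and none rose, and T and NK cell markers rose for 1 and 0 of 7. Endothelial markers fell for 2 of 7 in WT and 4 in A2AR KO hearts and fibroblast markers for 2 of 7 in each, and none of either rose. Their group means went from 8.69 to 8.20 and 10.35 to 9.65 in WT and from 8.69 to 8.05 and 10.28 to 9.55 in A2AR KO hearts. Atrial markers fell for 4 of 5 and ventricular muscle markers for 4 of 8 in each genotype, and none rose. The atrial group mean went from 11.63 to 10.85 in WT and from 11.85 to 10.88 in A2AR KO hearts. The ventricular one went from 13.91 to 13.70 and from 13.95 to 13.63. The part of any of these cells in the members' changes was not tested. Without WT saline arrays 1 and 4, which carried skeletal muscle transcripts, Irf7, Irf9 and Irf1 stayed called in WT hearts, and Irf8 had a WT change of 1.48 (adjusted p = 0.104).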

How the data were processed

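Gene expression was measured on Affymetrix arrays in 16 samples, 4 per group. The deposited table holds log2 probe set values that the authors made with RMA, per the submitters' processing notes. Its version is not given in the sources used here. RMA subtracts background and aligns array distributions, which compresses changes of dim probe sets. Array medians were 4.62 to 4.67. Arrays have no read depth, so their number limits the precision.

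Of 45101 probe sets, 64 controls were left out, 34945 carried 1 gene symbol, 932 several and 9160 none. Symbols were updated through the RefSeq table (GRCm38.p6), which matched 34741. The probe set with the highest mean stood for each of 18193 genes. A model with 1 mean per group was fitted with limma 3.58.1 (R 4.3.3; intensity-trended moderated variances, 12 residual degrees of freedom), two-sided, with adjustment over all genes. The script was tested on simulated data.

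The members and lists were chosen with earlier results of these data known. All members are named. Of each list, up to 4 called genes with the largest mean LPS change were open to naming; other listed genes named here (Tbk1, Ikbke, Mavs, Tlr4, Ciita, Il12b, Mx1, Oas3, Ifnb1, Ifna4, Ifng and the cell markers) were picked after their values had been seen. For each member called in both LPS comparisons with a mean change of at least 1, the 3 nearest genes are named. Alternatives were other probe sets, their mean, renormalization, a filter on dim genes, other variance models, only the 2 groups compared, a replicate block, and arrays left out.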

Additional observations from a re-analysis of the deposited data

Results flagged for a closer look

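Among 56 combinations of a member probe set and a group, 3 held 1 array far from the other 3 (Dixon's test, which flags about 1 in 20 such groups by chance). The Irf3 probe set 1438721_a_at read 3.44 in WT LPS array 4, against 4.87 to 4.95 in the other WT LPS arrays. The Irf5 probe set 1460231_at read 5.65 in the same array, against 4.54 to 4.73. The Irf8 probe set 1416714_at read 4.24 in WT saline array 1, against 5.02 to 5.16. None of these 3 is the probe set used for its gene.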

How the results depend on the processing

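The 4 members called higher in A2AR KO hearts and Irf7, Irf9 and Irf1 in WT hearts stayed called in every alternative run. Irf8 in WT hearts lost its call in 5 settings, listed with their values in the report. Irf2 gained a call in 2 leave-one-out settings in WT hearts, and in A2AR KO hearts in 5 leave-one-out settings and 3 others. Irf4 gained one in WT hearts with only the 2 groups compared (-0.28, adjusted p = 0.0412) and without A2AR KO LPS array 3 (-0.28, adjusted p = 0.0392). Members called ran from 3 to 5 in WT and 4 to 5 in A2AR KO hearts with 1 array left out, and stayed at 0 between genotypes in every setting. Signs of uncalled values changed 65 times, from main values of at most 0.28.

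Genes called in WT hearts were 2061 without WT saline arrays 1 and 4, against 3798, and 3006 to 4902 with 1 array left out, against 3871 to 5527 in A2AR KO hearts. After saline, the count between genotypes was 0 without dim genes, 14 with only the 2 groups compared and 1 to 5 with 1 array left out. After LPS it was 0 with only the 2 groups compared, 0 without WT saline arrays 1 and 4, and 0 to 3 with 1 array left out. The causes were not tested.

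Replicate numbers did not pair the arrays. Deviations from group means correlated at -0.27 to 0.33 over 24 same-number pairs, 3 of them over 0.1, and 4 of 16 arrays correlated best with their own number. With the replicate block 3537 and 4487 genes were called after LPS, with 4 members in each, and 0 members between genotypes.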
